A study of Homo sapiens with 5 samples.

Results

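The insulin-like growth factor (IGF) axis was followed through 10 genes in HL60, a human promyelocytic leukaemia cell line. The 10 genes were IGF1R, IGF2R and INSR (receptors), IRS1 and IRS2 (adaptors), IGFBP2 and IGFBP7 (secreted binding proteins), and IGF2BP1, IGF2BP2 and IGF2BP3 (RNA-binding proteins). All 10 were found by symbol among the 51055 genes of the deposited count table. The set was chosen by measured values: the counts of IGFBP2 and of IGF1R, a reported target of miR-378a-3p, were higher in ZIP cells, which carry an antisense vector against that microRNA, than in SCR cells with the control vector. The 5 libraries formed 3 groups. The ZIP group (n = 2) carried a lentivector whose hairpin RNA yields the antisense of miR-378a-3p. The SCR group (n = 2) carried the control lentivector, which the labels call both scramble and empty. The UNT group (n = 1) was HL60 without any vector. Both vectors carried GFP. Cells received them by spin transduction (multiplicity of infection 20, polybrene at 8 µg/mL) and then puromycin at 2 µg/mL between days 3 and 8, whereas UNT is labelled only as untransduced. All cells came from 1 line grown in medium with fetal bovine serum, and the labels do not say whether libraries of a group were separate cultures. The p-values therefore cover only library-to-library spread, possibly technical. That spread was small, with a coefficient of variation beyond counting error (edgeR) of 0.0246 over the SCR and ZIP libraries. The series title presents the knockdown as a mimic of MDS.

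IGF1R is a receptor tyrosine kinase that binds IGF-I and IGF-II and signals through the docking proteins IRS1 and IRS2 to phosphatidylinositol 3-kinase (PI3K), AKT and mTOR. INSR, the insulin receptor, is its close relative, while IGF2R, the cation-independent mannose 6-phosphate receptor, takes up IGF-II for degradation and carries enzymes to lysosomes. IGFBP2 binds IGFs outside the cell, and IGFBP7 is a related protein with low affinity for them. IGF2BP1, IGF2BP2 and IGF2BP3 bind mRNAs, among them those of IGF2 and MYC. IGF2BP1 and IGF2BP3 are oncofetal proteins with high expression in many leukaemias and other tumours.

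The microRNA targeted by the ZIP vector and its seed matches in the axis are shown first, since a seed match in the 3' untranslated region (UTR) is the usual way a microRNA reaches a target. The mature human miR-378a-3p has 22 bases (RefSeq, GRCh38.p14, chr5:149732867-149732888, plus strand), printed with its seed, bases 2 to 8, in capitals.
hsa-miR-378a-3p: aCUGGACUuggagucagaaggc
The 7-base DNA letters that pair with this seed, AGTCCAG on the transcript strand only, were searched in 1 annotated 3' UTR per gene (GENCODE 29, GRCh38). A match was present in 4 of the 10 genes, with 2 in IGF1R and 1 each in IGF2R, IRS2 and IGF2BP1. Each is printed with up to 15 bases before it and 8 after it, the match in capitals.
IGF1R, chr15:98957797-98957826, plus strand: aaaataattgccacaAGTCCAGctgggaag
IGF1R, chr15:98963017-98963046, plus strand: tcaatagggctcttaAGTCCAGtagattac
IGF2R, chr6:160106829-160106858, plus strand: gaacatggagtttagAGTCCAGtgagtcaa
IRS2, chr13:109753392-109753421, minus strand: gctccccagctctgcAGTCCAGaatctgct
IGF2BP1, chr17:49049452-49049481, plus strand: ctccctgtcccttcgAGTCCAGgacaacaa
The IGF1R matches begin at bases 370 and 5590 after the stop codon of a 3' UTR of 7088 bases. The IGF2BP1 match begins at base 23 of 6206, the IGF2R match at base 1760 of 6420 and the IRS2 match at base 2898 of 3606. The IRS2 match alone is followed by an A, the 8-base form AGTCCAGA. These UTRs are long. Of 527 other 3' UTRs of 0.8 to 1.25 times the length of that of IGF1R, 39.5% held at least 1 match and 9.87% held 2 or more. Among 3' UTRs of like length, 36.2% held a match for IGF2R, 22.3% for IRS2 and 35.9% for IGF2BP1, against 10.2% of all 18923 UTRs searched. No match was found in the UTR used for INSR, IRS1, IGFBP2, IGFBP7, IGF2BP2 or IGF2BP3. The map of the 10 UTRs shows the 5 positions. A match is a description of the letters, and no library measured binding.

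**Figure D1:**
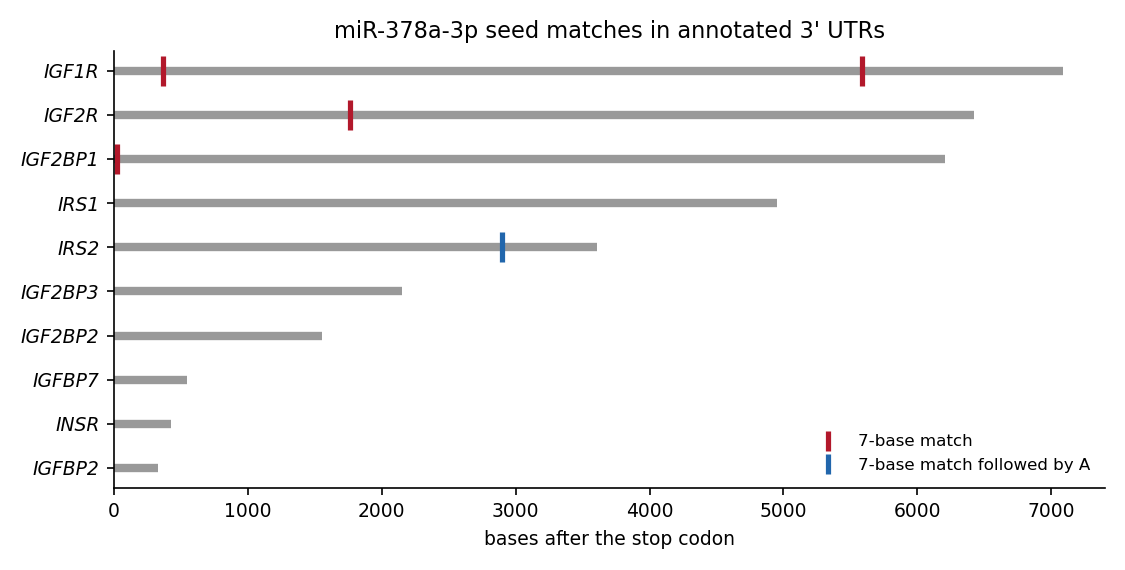
Position of the 7-base miR-378a-3p seed matches (ticks) in 1 annotated 3' UTR of each of the 10 genes (grey bars), in bases after the stop codon. IGF1R holds 2 matches, at bases 370 and 5590, IGF2R, IGF2BP1 and IRS2 hold 1 each, and the tick of IRS2 is the one followed by an A.

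The libraries held 30925067 and 24406580 counts in ZIP, 24539092 and 24978022 in SCR, and 25064771 in UNT. In a single library 3 counts equalled 0.0979 to 0.125 CPM (counts per 1000000, scaled by TMM factors). The smallest number treated as a signal was 3 counts over a group, which is a lower CPM in ZIP and SCR with their 2 libraries each. The MIR378A locus had 0 and 2 counts in ZIP, 0 and 0 in SCR, and 0 in UNT, which does not check the knockdown. All 8 promyelocyte markers listed (MPO, ELANE, AZU1, PRTN3, CTSG, CD33, MYB and CEBPE) were at 1 CPM or more in every library, and summed to 23179 and 22532 CPM in ZIP, 12227 and 12228 in SCR, and 25106 in UNT. The 9 matched monocyte and macrophage markers all had counts in every library and summed to 1448 and 1452 CPM in ZIP, 1303 and 1311 in SCR, and 348 in UNT. Of the 9, 4 and 5 were at 1 CPM or more in ZIP, 6 and 6 in SCR, and 4 in UNT. Endothelial markers summed to 0.0979 and 0.248 CPM in ZIP, 0.788 and 0.855 in SCR, and 0 in UNT, with KDR at 0 in every library. Fibroblast and epithelial markers summed to 1.63 and 0.868 CPM in ZIP, 2.21 and 3.11 in SCR, and 1.54 in UNT, with COL3A1 and KRT19 at 0 in every library. Hepatocyte markers stayed at or under 0.229 CPM in sum in every library, and lymphoid markers summed to 13.9 and 14.4 CPM in ZIP, 24.7 and 22.7 in SCR, and 16.4 in UNT, with MS4A1 at 0 in every library. The part of the promyelocyte and monocyte differences in the results below was not tested. In such bulk samples, fewer cells that express a gene and less RNA per cell cannot be told apart.

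Of the receptors, IGF1R (ENSG00000140443, chromosome 15, 98648539 to 98964530, plus strand, GENCODE 29) had 97.3 and 97.4 CPM in ZIP, 61.2 and 60.3 CPM in SCR, and 88.7 CPM in UNT. The replicates lay within 1 CPM of each other, the SCR libraries were the low ones, and ZIP and UNT lay close together with ZIP slightly above. Its log2 fold change (± SE) was 0.68 ± 0.03 in ZIP over SCR, 0.13 ± 0.04 in ZIP over UNT and -0.55 ± 0.04 in SCR over UNT. The gap between ZIP and SCR is 1 of the values by which the genes were chosen. It and the values that share those libraries are therefore given for IGF1R and IGFBP2 without a test. The RefSeq window from 250 bases before to 50 bases after the IGF1R start (GRCh38.p14, chr15:98648289-98648588, plus strand) is printed to show how the promoter of this receptor is composed, with the GC box letters GGGCGG or CCGCCC, searched on both strands, in capitals.
IGF1R promoter: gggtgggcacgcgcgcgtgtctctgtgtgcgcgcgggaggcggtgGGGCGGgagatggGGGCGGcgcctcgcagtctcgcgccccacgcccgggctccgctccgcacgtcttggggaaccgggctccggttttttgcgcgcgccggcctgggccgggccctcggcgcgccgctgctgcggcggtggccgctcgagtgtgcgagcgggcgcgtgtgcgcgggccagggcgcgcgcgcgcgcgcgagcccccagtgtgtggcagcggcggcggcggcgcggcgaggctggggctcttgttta
It is 79.7% G or C, more than 97.1% of 35116 such windows, and holds 2 GC boxes, which 45.0% of windows hold at least once. It holds no TATAAA on either strand (11.5% of windows do).

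INSR (ENSG00000171105, chromosome 19, 7112255 to 7294034, minus strand) had the opposite order of ZIP and SCR. It had 84.6 and 83.9 CPM in ZIP, 105 and 102 CPM in SCR, and 78.4 CPM in UNT. SCR was the high group here, with no overlap with the other libraries. INSR rose in SCR over UNT, by 0.41 ± 0.04 on the log2 scale (adjusted p = 6.5e-09, edgeR quasi-likelihood test with Benjamini-Hochberg adjustment over all genes, as for every adjusted p below). Its log2 fold change was -0.30 ± 0.03 in ZIP over SCR and 0.10 ± 0.04 in ZIP over UNT, both given without a test. Per kilobase of annotated exon, the IGF1R level was 0.862 and 0.871 times that of INSR in ZIP, 0.435 and 0.442 times in SCR, and 0.848 times in UNT. On this per-length scale INSR was thus the higher of the pair in all 5 libraries, by the widest margin in SCR.

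IGF2R (ENSG00000197081, chromosome 6, 159969099 to 160113507, plus strand) differed most from UNT among the receptors. It had 231 and 239 CPM in ZIP, 313 and 320 CPM in SCR, and 97.4 CPM in UNT. Both vector groups lay above UNT, SCR highest, and no groups overlapped. IGF2R rose in SCR over UNT by 1.70 ± 0.04 on the log2 scale, a 3.25-fold difference (adjusted p = 2.9e-20, edgeR). The log2 fold change was 1.27 ± 0.04 in ZIP over UNT and -0.43 ± 0.03 in ZIP over SCR. Per kilobase of exon, IGF2R stood at 1.85 and 1.91 times IGF1R in ZIP, 4.0 and 4.14 times in SCR, and 0.858 times in UNT, so that the level of the scavenging receptor was above that of the signalling one in the 4 vector libraries and not in UNT. With the longest transcript as the length, the same ratio was 2.07 and 2.13 in ZIP, 4.46 and 4.62 in SCR, and 0.957 in UNT. M6PR, the cation-dependent mannose 6-phosphate receptor, had 208 and 206 CPM in ZIP, 223 and 223 CPM in SCR, and 179 CPM in UNT, a smaller rise in SCR over UNT (0.32 ± 0.03, adjusted p = 2.8e-08, edgeR). The monocyte marker sum given above was also higher in both vector groups than in UNT, and its part in the IGF2R difference was not tested.

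**Figure D2:**
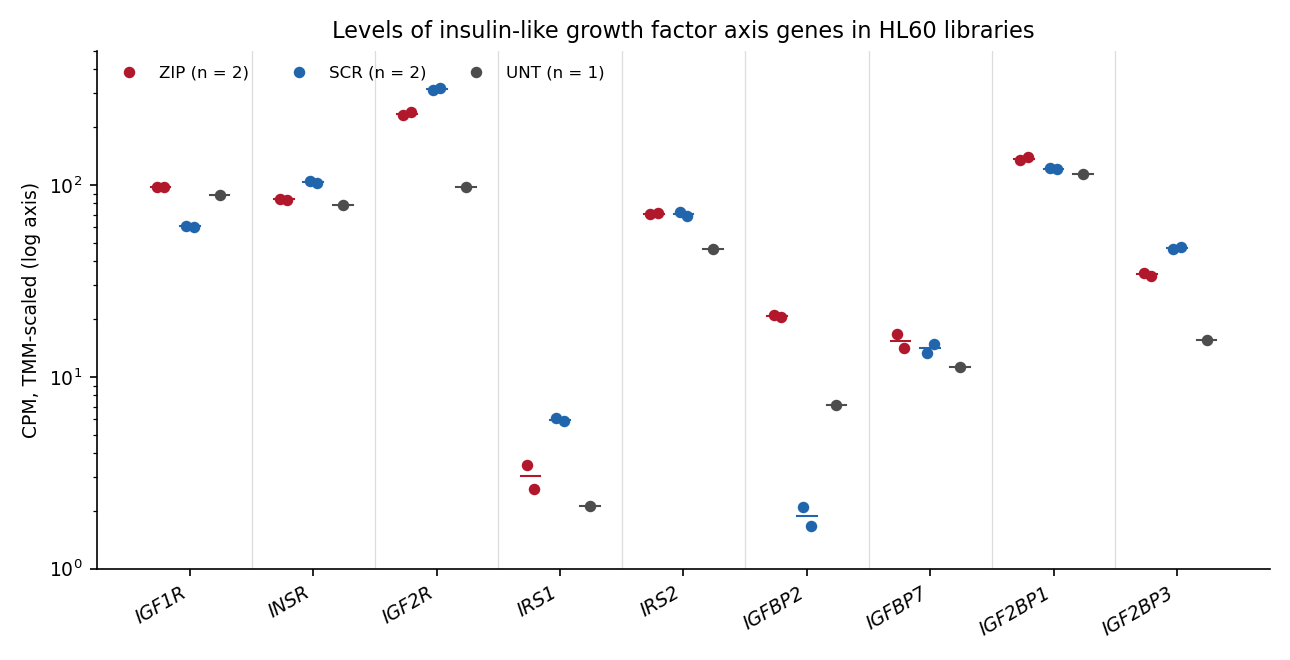
Level of 9 genes of the axis in each library, in TMM-scaled CPM on a log axis. Points are libraries and short lines are group means (ZIP red, SCR blue, UNT grey); IGF2BP2 is left out because it had 0 counts in 3 libraries. IGFBP2 and IGF1R are lowest in SCR, whereas IGF2R, IRS1 and IGF2BP3 are highest there and lowest in UNT.

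The 2 docking adaptors were expressed very unequally. IRS1 (ENSG00000169047, chromosome 2, 226731317 to 226799759, minus strand) was rare, with 106 and 63 counts (3.46 and 2.60 CPM) in ZIP, 154 and 152 counts (6.07 and 5.91 CPM) in SCR, and 51 counts (2.13 CPM) in UNT. SCR was high, and the 2 ZIP libraries differed from each other by more than the SCR libraries did. IRS1 rose in SCR over UNT by 1.49 ± 0.21 on the log2 scale (adjusted p = 1.1e-06, edgeR). Its log2 fold change was -0.96 ± 0.15 in ZIP over SCR and 0.53 ± 0.23 in ZIP over UNT. IRS2 (ENSG00000185950, chromosome 13, 109752698 to 109786568, minus strand) had 70.8 and 71.0 CPM in ZIP, 71.9 and 69.0 CPM in SCR, and 46.5 CPM in UNT. The ZIP and SCR values overlapped, and both groups stood above UNT. IRS2 rose in SCR over UNT by 0.60 ± 0.05 (adjusted p = 3.0e-10, edgeR), its log2 fold change in ZIP over UNT was 0.61 ± 0.05, and in ZIP over SCR it was 0.01 ± 0.04. That last value turns to -0.05 with library totals as the scale and to -0.02 without SCR 2, so its sign depends on those choices. Per kilobase of exon, IRS2 exceeded IRS1 by 25.0 and 33.4 times in ZIP, 14.5 and 14.3 times in SCR, and 26.7 times in UNT.

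IGFBP2 (ENSG00000115457, chromosome 2, 216632828 to 216664436, plus strand) had the largest ratio between its highest and lowest library of the 9 genes tested. It had 645 and 497 counts (21.1 and 20.5 CPM) in ZIP, 53 and 43 counts (2.09 and 1.67 CPM) in SCR, and 170 counts (7.09 CPM) in UNT. ZIP was the high group, SCR the low one and UNT lay between them, with no overlap. The log2 fold change was 3.47 ± 0.12 in ZIP over SCR, an 11.1-fold difference, 1.55 ± 0.11 in ZIP over UNT and -1.91 ± 0.18 in SCR over UNT, all without a test since IGFBP2 was picked for this pattern. Unlike IGF1R, whose ZIP and UNT levels were close, IGFBP2 stood 2.93-fold higher in ZIP than in UNT. RefSeq gives 3 start windows for IGFBP2. The one at the gene start of GENCODE 29 (GRCh38.p14, chr2:216632578-216632877, plus strand) is printed for comparison with that of IGF1R, GC box letters in capitals.
IGFBP2 promoter: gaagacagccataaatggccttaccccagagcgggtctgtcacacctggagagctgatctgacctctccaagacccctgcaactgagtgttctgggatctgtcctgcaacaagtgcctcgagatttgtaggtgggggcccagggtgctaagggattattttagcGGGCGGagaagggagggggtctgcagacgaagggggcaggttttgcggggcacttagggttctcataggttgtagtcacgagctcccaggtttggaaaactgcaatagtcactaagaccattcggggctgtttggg
This window is 55.3% G or C, below the median of 58.7% over all windows, and holds 1 GC box and no TATAAA. The other IGFBP2 windows are 70.0% and 56.7% G or C. The printed windows of the 2 genes thus differ in composition. The counts do not say which IGFBP2 start was in use, and its 70.0% window has more G or C than 79.7% of all windows. The windows of IGF2R, INSR, IRS1 and IRS2 are 78.7%, 78.3%, 79.3% and 75.7% G or C, near that of IGF1R. The IGF2BP3 window, at 56.3%, is near the printed IGFBP2 window, and IGF2BP2 has windows of 80.7% and 35%.

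IGFBP7 (ENSG00000163453, chromosome 4, 57030773 to 57110385, minus strand) had 16.7 and 14.1 CPM in ZIP, 13.3 and 14.8 CPM in SCR, and 11.3 CPM in UNT. The ZIP and SCR libraries overlapped, and all 4 lay above UNT. IGFBP7 rose in SCR over UNT by 0.31 ± 0.12 on the log2 scale (adjusted p = 0.0255, edgeR), but the call was lost without SCR 2 (adjusted p = 0.101) and by the DESeq2 Wald test (adjusted p = 0.171). The log2 fold change was 0.15 ± 0.09 in ZIP over SCR and 0.45 ± 0.11 in ZIP over UNT. POLR2B lies on the opposite strand and shares 270 exonic bases with IGFBP7, 14% of its exon length. Whether the authors counted by strand is not given, so reads in the shared stretch cannot be assigned.

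Among the RNA-binding proteins, IGF2BP1 and IGF2BP3 were expressed and IGF2BP2 was at the limit of detection. IGF2BP1 (ENSG00000159217, chromosome 17, 48997412 to 49055650, plus strand) had 134 and 140 CPM in ZIP, 122 and 121 CPM in SCR, and 114 CPM in UNT. The groups did not overlap but were close. IGF2BP1 rose in SCR over UNT by 0.10 ± 0.04 on the log2 scale (adjusted p = 0.0302, edgeR), a call lost without SCR 1 (adjusted p = 0.0829) and by the DESeq2 Wald test (adjusted p = 0.180). Its log2 fold change was 0.16 ± 0.03 in ZIP over SCR and 0.26 ± 0.04 in ZIP over UNT.

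IGF2BP3 (ENSG00000136231, chromosome 7, 23310209 to 23470467, minus strand) had 34.7 and 33.7 CPM in ZIP, 46.5 and 47.2 CPM in SCR, and 15.5 CPM in UNT. SCR was highest and UNT lowest, with no overlap, the same order as IGF2R. IGF2BP3 rose in SCR over UNT by 1.59 ± 0.07 on the log2 scale, 3.02-fold (adjusted p = 1.1e-14, edgeR), and its log2 fold change was 1.14 ± 0.08 in ZIP over UNT and -0.45 ± 0.05 in ZIP over SCR. MALSU1, a factor of the mitochondrial ribosome encoded on the opposite strand, shares 1521 exonic bases with it, 17.9% of the IGF2BP3 exon length. MALSU1 had 1036 and 855 counts in ZIP, 625 and 629 in SCR, and 1018 in UNT, so its counts were lowest where those of IGF2BP3 were highest. The part of shared reads in either gene was not tested.

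IGF2BP2 (ENSG00000073792, chromosome 3, 185643739 to 185825056, minus strand) had 0 and 0 counts in ZIP, 4 and 3 counts in SCR, and 0 counts in UNT. It did not pass the filter on low counts. With ZIP put at a floor of 3 counts over the group, the 7 SCR counts gave a ratio of SCR to ZIP of 2.51. That ratio takes the few SCR counts as exact and carries no interval. Within the read counts of the 3 genes, IGF2BP3 made up 20.6% and 19.4% in ZIP, 27.5% and 28.0% in SCR, and 12.0% in UNT. The exact (Clopper-Pearson) 95% intervals were 19.5 to 21.8% and 18.2 to 20.6% in ZIP, 26.2 to 28.8% and 26.7 to 29.4% in SCR, and 10.9 to 13.2% in UNT, and cover counting error only. The IGF2BP3 share was thus lowest in the single UNT library and highest in the SCR libraries, and the replicates of ZIP and of SCR lay closer to each other than to the other groups. No test over libraries was made of this share. Per kilobase of exon IGF2BP1 stood at 3.59 and 3.88 times IGF2BP3 in ZIP, 2.46 and 2.40 times in SCR, and 6.85 times in UNT. The longest transcript as length lowered these to 1.97 and 2.13 in ZIP, 1.35 and 1.32 in SCR, and 3.77 in UNT, and kept IGF2BP1 above IGF2BP3 in every library.

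**Figure D3:**
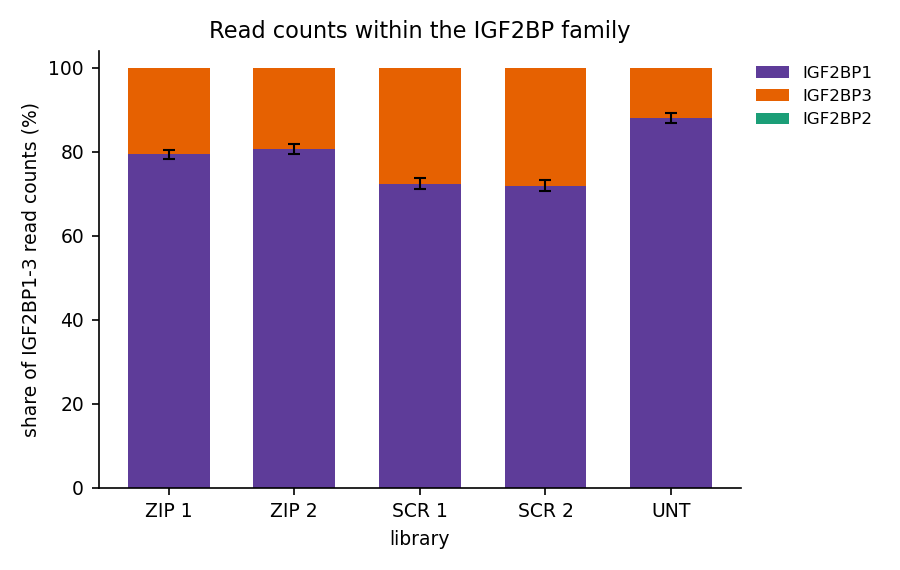
Share of each gene in the summed read counts of IGF2BP1, IGF2BP3 and IGF2BP2, in percent, for each library. Error bars are exact 95% intervals of the IGF2BP1 share, which was 79.4% and 80.6% in ZIP, 72.4% and 71.9% in SCR, and 88.0% in UNT.

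Ranked by CPM per kilobase of exon, the order of the 10 genes differed between groups. In ZIP the highest were IGF2BP1 (14.7 and 15.4) and IGF2R (12.9 and 13.4). IRS2 (8.71 and 8.73), IGFBP7 (8.66 and 7.32) and INSR (8.10 and 8.02) followed, IGFBP7 and INSR changing places between the 2 libraries. IGF1R (6.98 and 6.99), IGFBP2 (4.42 and 4.31) and IGF2BP3 (4.08 and 3.96) came next, then IRS1 (0.348 and 0.262). In SCR the order ran from IGF2R (17.6 and 17.9), IGF2BP1 (13.4 and 13.3) and INSR (10.1 and 9.80) to IRS2 (8.83 and 8.48), IGFBP7 (6.90 and 7.65), IGF2BP3 (5.46 and 5.55) and IGF1R (4.39 and 4.33). IRS1 (0.610 and 0.594) and IGFBP2 (0.438 and 0.351) were far below. In UNT IGF2BP1 (12.5) led INSR (7.5), IGF1R (6.36), IGFBP7 (5.88), IRS2 (5.71) and IGF2R (5.46), followed by IGF2BP3 (1.82), IGFBP2 (1.49) and IRS1 (0.214). IGF2BP2 was last in every library, at or under 0.0333. On this scale IGFBP2 lay just above IGF2BP3 in ZIP and below IRS1 in SCR. The ZIP order of IGFBP2 and IGF2BP3 depends on the length used. The exon union of IGF2BP3 is 8511 bases and its longest transcript 4250, against 4767 and 4414 for IGFBP2. With the longest transcript as length, IGF2BP3 lay above IGFBP2 in both ZIP libraries. IGF1R, IGFBP7, IRS2 and IGF2R in UNT lay within 1 CPM per kilobase of each other in a single library, so their order is not resolved.

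Across the 3 comparisons, 9 of the 10 genes passed the filter on low counts, and each of the 9 had at least 43 counts in every library. In ZIP over SCR the fit across all genes placed 3 of the 9 past its threshold on the higher side, IGF1R and IGFBP2 by the choice of the set and IGF2BP1, and 4 on the lower side (IGF2R, INSR, IRS1, IGF2BP3), where 65.4% of 14643 genes tested were called, 32.2% higher and 33.2% lower. In ZIP over UNT 8 were called higher and IRS1 was not called, where 58.2% of 15832 genes were called, 28.5% higher and 29.7% lower. In SCR over UNT the 7 genes other than IGF1R and IGFBP2 were called higher, and those 2, picked partly for their low SCR values, lay on the lower side, where 64.9% of 15832 genes were called, 32.7% higher and 32.2% lower. Nothing is read from these counts, because the set was chosen on the ZIP and SCR libraries and each comparison uses at least 1 of those groups. In ZIP over UNT the calls of IGF1R and INSR were lost by the DESeq2 Wald test. The INSR call was also lost without the filter and without ZIP 1. IRS1 was called there with DESeq2 size factors, with library totals, and with SCR 1, SCR 2 or ZIP 2 left out in turn. Most genes tested were called in each comparison, so a call alone does not set a gene apart. The 3 comparisons share libraries, and their values are therefore given side by side in the plot of fold changes. The plot holds genes with and without a seed match but does not mark them. In ZIP over SCR the genes with a match stood at 0.68 (IGF1R), 0.16 (IGF2BP1), 0.01 (IRS2) and -0.43 (IGF2R), and the tested genes without a match in the UTR searched stood at 3.47 (IGFBP2), 0.15 (IGFBP7), -0.30 (INSR), -0.45 (IGF2BP3) and -0.96 (IRS1).

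**Figure D4:**
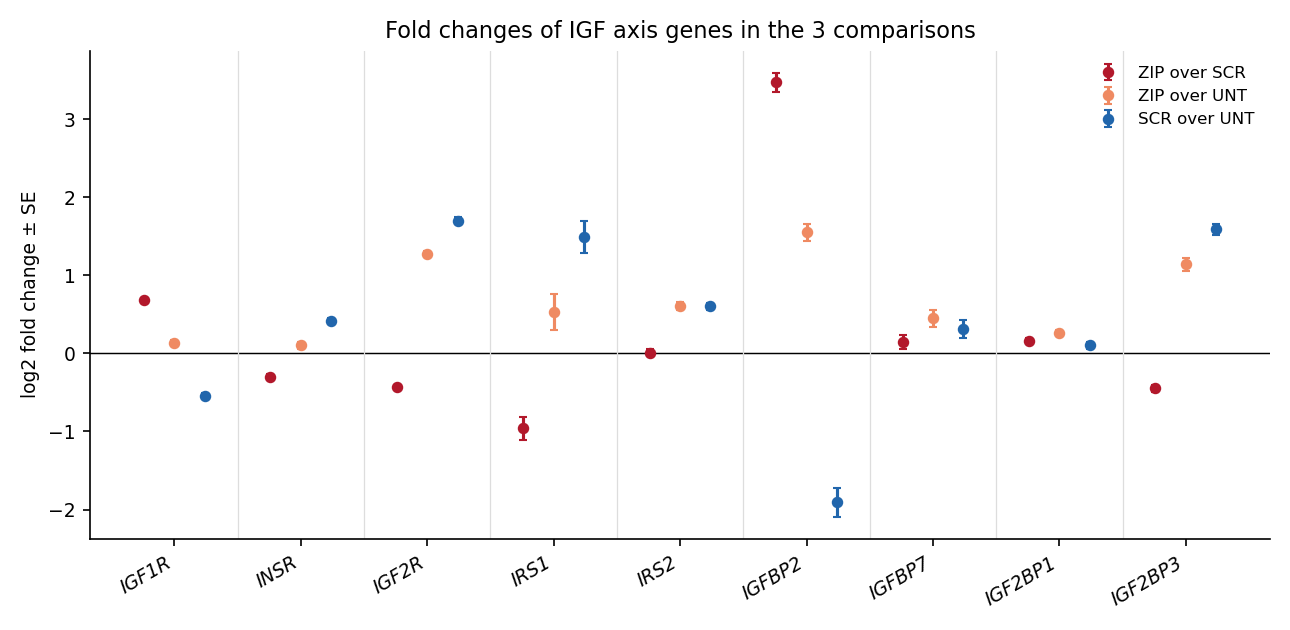
Log2 fold change (points) with its standard error (bars) of 9 genes in ZIP over SCR, ZIP over UNT and SCR over UNT, from edgeR. IGFBP2 (3.47 in ZIP over SCR, -1.91 in SCR over UNT) and IGF1R (0.68 and -0.55) are the 2 genes below 0 in SCR over UNT.

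The rest of the pathway was covered by a list of 95 further genes, of which 94 were matched, 76 passed the filter in ZIP over SCR and 79 in the other comparisons. In ZIP over SCR 25 rose and 37 fell (81.6% called, median log2 fold change -0.11, against 65.4% and 0.00 over all genes tested). In ZIP over UNT 36 rose and 24 fell (75.9% called, median 0.12, against 58.2% and 0.00). In SCR over UNT 44 rose and 22 fell (83.5% called, median 0.36, against 64.9% and 0.02). With FOXO1, at 0 in UNT, put at its bound, the medians against UNT were the same. They could not change, since FOXO1 stays above them at its bound.

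Ligand transcripts were scarce. IGF1 had 25 and 16 counts in ZIP, 10 and 10 in SCR, and 1 in UNT. It rose in ZIP over SCR by 0.92 ± 0.38 on the log2 scale (adjusted p = 0.0385, edgeR), and against the 1 count of UNT its ratio was 17.9 in ZIP (95% interval 3.04 to 725) and 9.40 in SCR (1.5 to 389). IGF2 had 0 and 1 counts in ZIP and none elsewhere, and INS had no count in any library. IGF2 and INS were thus not detectable at this depth, and IGF1 stayed under 1 CPM. The IGF1 call was not followed under the alternative settings.

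Among the other binding proteins, IGFBP4, which holds back IGF-I and IGF-II, was highest in SCR and lowest in UNT, whereas IGFBP2 was highest in ZIP and lowest in SCR. IGFBP4 had 4.73 and 4.34 CPM in ZIP, 11.7 and 12.7 CPM in SCR, and 1.42 CPM in UNT. It fell in ZIP over SCR (-1.42 ± 0.11, adjusted p = 4.4e-10) and rose in ZIP over UNT (1.68 ± 0.22, adjusted p = 9.7e-07) and in SCR over UNT (3.10 ± 0.19, adjusted p = 1.1e-12, edgeR). STC2, stanniocalcin-2, which inhibits the protease PAPPA that cleaves IGFBP4, had 19 and 13 counts in ZIP, 512 and 478 in SCR, and 2 in UNT. STC2 fell in ZIP over SCR (-5.04 ± 0.15, adjusted p = 1.2e-16, edgeR), and its ratio in SCR to UNT was 233 (95% interval 64.2 to 1923). IGFBP6 had 6 and 7 counts in ZIP, 11 and 5 in SCR, and 20 in UNT, and fell in both vector groups over UNT (ZIP -1.79 ± 0.58, SCR -1.40 ± 0.56). IGFBP3 had 1 and 0 counts in ZIP, 2 and 3 in SCR, and 0 in UNT. IGFALS, the acid-labile subunit of the circulating IGF complex, had 5 and 6 counts in ZIP, 2 and 2 in SCR, and 0 in UNT. IGFBP1, IGFBP5, PAPPA, STC1 and HTRA1 had no count in any library, and PAPPA2 had at most 4. FURIN, the convertase that cleaves the IGF1R and INSR precursors, had 81.2 and 79.9 CPM in ZIP, 101 and 98.7 CPM in SCR, and 58.9 CPM in UNT, and fell in ZIP over SCR (-0.31 ± 0.03, adjusted p = 3.2e-08, edgeR).

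Of 19 adaptors and negative regulators tested, 4 rose and 8 fell in ZIP over SCR, 8 rose and 5 fell in ZIP over UNT, and 11 rose and 5 fell in SCR over UNT. The share called was 63.2% in ZIP over SCR, against 65.4% of all genes, 68.4% in ZIP over UNT, against 58.2%, and 84.2% in SCR over UNT, against 64.9%. SOCS3, a feedback inhibitor of cytokine and insulin signalling, had 1.24 and 0.951 CPM in ZIP, 8.55 and 8.40 CPM in SCR, and 0.626 CPM in UNT (ZIP over SCR -2.92 ± 0.16, adjusted p = 2.8e-12; SCR over UNT 3.75 ± 0.25, adjusted p = 5.6e-12, edgeR). The scaffold GAB1 fell in ZIP over SCR (-1.79 ± 0.24, adjusted p = 1.4e-06), as did SH2B3, an adaptor that restrains receptor signalling in blood cells (-0.99 ± 0.03, adjusted p = 7.7e-16, edgeR). PHIP, an IRS1-interacting protein, had 118 and 126 CPM in ZIP, 96.0 and 95.7 CPM in SCR, and 25.4 CPM in UNT, and rose in both vector groups over UNT (ZIP 2.26 ± 0.05, SCR 1.92 ± 0.06). The ubiquitin ligase CBL also rose in ZIP over UNT (1.39 ± 0.04), while SOCS1 fell (-2.18 ± 0.33).

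**Figure D5:**
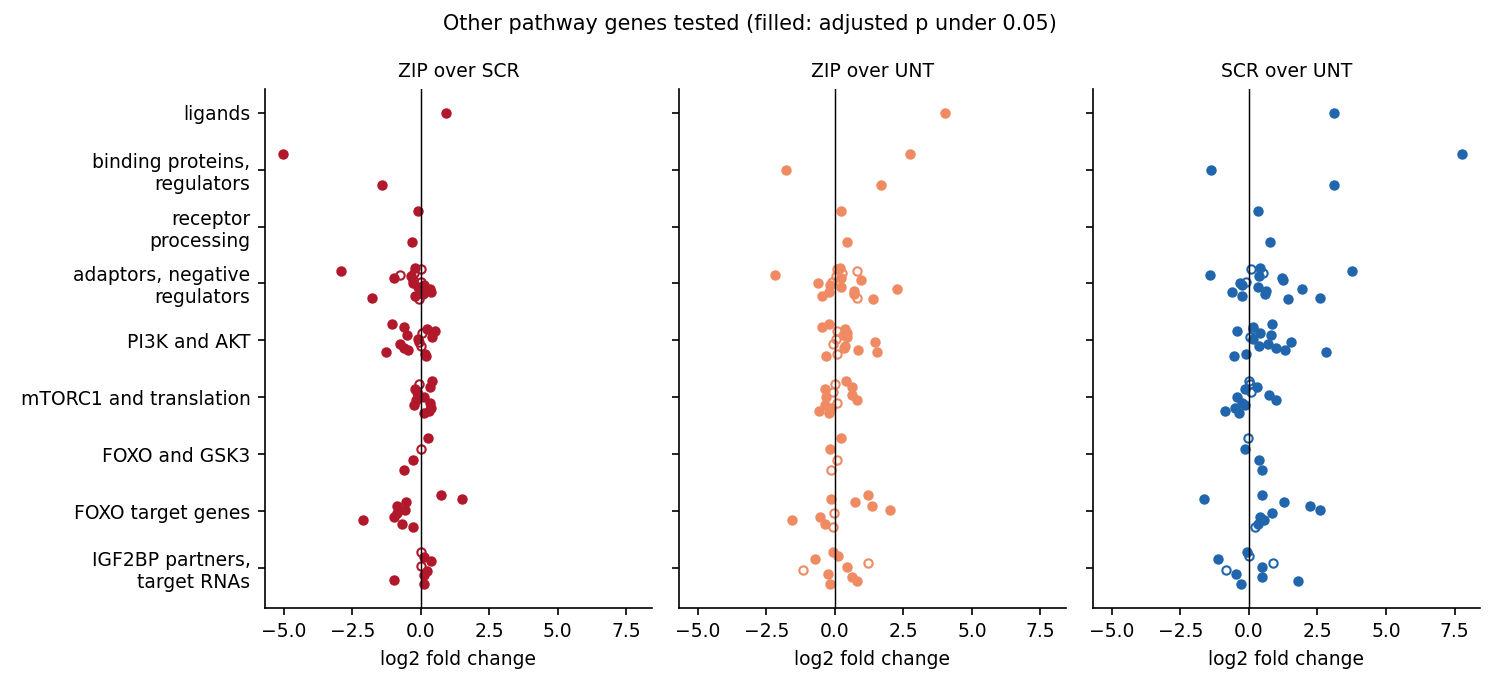
Log2 fold change of the other pathway genes tested, by role (rows), in ZIP over SCR, ZIP over UNT and SCR over UNT (panels, left to right). Each point is a gene, filled when called, and FOXO1 is left out because it had no count in UNT; the FOXO targets lie mostly left of 0 in ZIP over SCR (8 of 10 lower) and right of 0 in SCR over UNT (8 of 10 higher).

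Of 16 PI3K and AKT genes, 5 rose and 8 fell in ZIP over SCR (31.2% and 50%, against 32.2% and 33.2% of all genes), 9 rose and 3 fell in ZIP over UNT (56.2% and 18.8%, against 28.5% and 29.7%), and 11 rose and 3 fell in SCR over UNT (68.8% and 18.8%, against 32.7% and 32.2%). The pseudokinase TRIB3 (-1.05 ± 0.03) and the AKT phosphatase PHLPP1 (-0.77 ± 0.05) fell in ZIP over SCR. PHLPP2 rose in SCR over UNT (1.53 ± 0.22), as did the inositol phosphatase INPP5D (1.31 ± 0.04). Of 13 mTORC1 and translation genes, 7 rose and 5 fell in ZIP over SCR (53.8% and 38.5%, against 32.2% and 33.2% of all genes), 4 rose and 6 fell in ZIP over UNT (30.8% and 46.2%, against 28.5% and 29.7%), and 3 rose and 7 fell in SCR over UNT (23.1% and 53.8%, against 32.7% and 32.2%; median log2 fold change -0.13). In ZIP over SCR the largest rises included the mTORC1 brake TSC2 at 0.40 ± 0.03 (adjusted p = 1.0e-09), the cap-binding protein EIF4E at 0.36 ± 0.05 (adjusted p = 2.0e-06) and its inhibitor EIF4EBP2 at 0.33 ± 0.03 (adjusted p = 1.6e-09, edgeR). MTOR had 146 and 144 CPM in ZIP, 170 and 161 CPM in SCR, and 83.2 CPM in UNT, and rose in SCR over UNT (0.99 ± 0.04). So did RICTOR (0.74 ± 0.05), which was counted in this role but is a subunit of the other mTOR complex, mTORC2. The mTOR inhibitor DEPTOR fell in SCR over UNT (-0.87 ± 0.13). RPTOR, the defining subunit of mTORC1, rose in ZIP over UNT (0.61 ± 0.05).

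FOXO factors, which AKT keeps out of the nucleus, and their targets formed the end of the pathway. FOXO1 had 9 and 9 counts in ZIP, 33 and 29 in SCR, and 0 in UNT. With UNT put at a floor of 3 counts over the group, its ratio of SCR to UNT was 9.71, with the SCR counts taken as exact. FOXO1 fell in ZIP over SCR (-1.87 ± 0.35, adjusted p = 9.4e-05, edgeR). FOXO3 fell in ZIP over SCR as well (-0.60 ± 0.05, adjusted p = 7.7e-10). FOXO4 was called lower (-0.28 ± 0.08, adjusted p = 0.00447), a call lost without ZIP 2 (adjusted p = 0.0607) and by the DESeq2 Wald test (adjusted p = 0.0538). Of the 2 GSK3 kinases, which AKT inhibits, GSK3B rose in ZIP over UNT (0.22 ± 0.05) and GSK3A was called lower (-0.17 ± 0.04), a call lost by the DESeq2 Wald test (adjusted p = 0.0665). Of 10 FOXO targets, 2 rose and 8 fell in ZIP over SCR, 4 rose and 4 fell in ZIP over UNT, and 8 rose and 1 fell in SCR over UNT. That is 20% higher and 80% lower in ZIP over SCR, against 32.2% and 33.2% of all genes, 40% and 40% in ZIP over UNT, against 28.5% and 29.7%, and 80% and 10% in SCR over UNT, against 32.7% and 32.2%. These shares describe 10 genes, and no test of the list was made. The cyclin CCNG2 had 4.90 and 4.17 CPM in ZIP, 20.4 and 19.2 CPM in SCR, and 13.5 CPM in UNT (ZIP over SCR -2.11 ± 0.10, adjusted p = 1.3e-13, edgeR). CDKN1B, the cell cycle inhibitor p27, fell in ZIP over SCR (-0.97 ± 0.04, adjusted p = 1.3e-14). SESN3, a sestrin, went the other way, with 188 and 194 CPM in ZIP, 67.8 and 66.4 CPM in SCR, and 210 CPM in UNT (ZIP over SCR 1.51 ± 0.03, adjusted p = 2.7e-19, edgeR). KLF6 (2.59 ± 0.06) and the PI3K inhibitor PIK3IP1 (2.23 ± 0.21) rose in SCR over UNT.

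Of the partners and known target RNAs of the IGF2BP proteins, 8 were tested in ZIP over SCR, of which 5 rose and 1 fell (62.5% and 12.5%, against 32.2% and 33.2% of all genes). Of 10 tested against UNT, 4 rose and 4 fell in ZIP (40% each, against 28.5% and 29.7%) and 3 rose and 4 fell in SCR (30% and 40%, against 32.7% and 32.2%). MYC, whose mRNA IGF2BP1 stabilises, had 1223 and 1214 CPM in ZIP, 926 and 933 CPM in SCR, and 2033 CPM in UNT (ZIP over SCR 0.39 ± 0.02, adjusted p = 3.2e-13; SCR over UNT -1.13 ± 0.02, adjusted p = 3.0e-22, edgeR). The adhesion receptor CD44 had 127 and 133 CPM in ZIP, 255 and 263 CPM in SCR, and 74.7 CPM in UNT (ZIP over SCR -0.99 ± 0.03, adjusted p = 1.7e-16; SCR over UNT 1.8 ± 0.04, adjusted p = 4.8e-20, edgeR). ELAVL1, the RNA-binding protein HuR, rose in ZIP over SCR (0.24 ± 0.03), and the helicase DHX9 rose in SCR over UNT (0.49 ± 0.03). LIN28B had no count in any library.

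The genes whose pattern was most like those of IGFBP2 and IGF1R were taken from 11022 protein-coding genes with a mean of at least 1 CPM. Likeness was the distance between the pairs of differences in mean log2 CPM (offset 0.5), ZIP minus SCR and SCR minus UNT, over the 5 libraries in 3 groups. These differences hold the ZIP and SCR values by which the 2 genes were picked, so the distances are description only. A gene picked as extreme on this scale has few others near it. IGFBP2, at 3.17 and -1.68 on this scale, had no close neighbour. The nearest were the adhesion protein SDK2 (2.46 and -1.31, distance 0.793), the granule protease CTSG, cathepsin G (2.16 and -1.42, distance 1.04), which is also among the promyelocyte markers, and BEND6 (2.12 and -1.56, distance 1.06). IGF1R, at 0.68 and -0.54, had neighbours at distances under 0.03, namely TSPYL1 (0.00706), the exosome subunit EXOSC6 (0.0195) and the oligoribonuclease REXO2 (0.0249). TSPYL1 had 83.3 and 83.0 CPM in ZIP, 51.1 and 52.1 CPM in SCR, and 75.5 CPM in UNT.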

How the data were processed

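Gene counts of 5 HL60 libraries (2 ZIP, 2 SCR, 1 UNT) were used. The deposited values are raw counts per gene without normalization, as read from the values. Bowtie2 and featureCounts appear in the submitters' processing notes, whereas the series' design text names CASAVA 1.8.2, TopHat 2, Cufflinks and HTSeq. The tool that made the counts, their genome build, annotation and strand setting are items not given in the sources used here. Per the labels' protocols, total RNA went into a TruSeq Small RNA kit.

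Of 51055 gene IDs, 44305 matched GENCODE 29 (GRCh38), the source of coordinates, exon lengths and UTRs. Counts were filtered with filterByExpr (count of 10, total of 15), TMM-scaled and tested with the edgeR 4.0.16 quasi-likelihood test in R 4.3.3 at an adjusted p of 0.05 over all genes. ZIP over SCR used 4 libraries, the others all 5, each with 2 residual degrees of freedom, the UNT library assumed to vary like the rest. Standard errors are the log2 fold change over the square root of F. DESeq2 1.42.0, other scalings, no filter, left-out libraries, a replicate block, other lengths and other site definitions were tried. Scripts were tested on simulated data. The comparison of protein sequences was not run, since no protein table was used here.

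The genes and lists were chosen with earlier results of these data known. Named pathway genes were the ligands and IGF binding proteins, and up to 3 genes a role and comparison with the largest change among those called with at least 1 CPM on average in a group. LIN28B and the listed regulators without counts were named in addition, after their values were seen. The values of 1 gene that this rule names are not reported here.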

Additional observations from a re-analysis of the deposited data

How the results depend on the processing

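The counts of axis genes called kept within 1.5 times under every alternative run, as did those of the other pathway genes. For the axis genes this describes the processing only. They were chosen on the ZIP and SCR libraries, so steady counts are no evidence for their calls. Leaving out 1 library gave 3 to 4 axis genes higher and 4 to 4 lower in ZIP over SCR, 7 to 9 higher and 0 lower in ZIP over UNT, and 6 to 7 higher and 2 lower in SCR over UNT. The replicate numbers of ZIP and SCR share only a number: the difference between replicates 1 and 2 correlated at 0.0676 between the groups over 12359 genes, and with the replicate block 3 axis genes were called higher and 4 lower, and 25 and 37 of the other pathway genes, in ZIP over SCR. No block was possible against the single UNT library. Library totals moved the median of all genes in SCR over UNT to 0.13 from 0.02. Of 790 single-gene values under alternatives 770 kept sign and side of the threshold, 2 changed sign (IRS2 in ZIP over SCR, -0.05 with library totals, and -0.02 to 0.04 over the left-out libraries), 12 lost a call and 6 gained one. With the 8-base site 1 axis gene rather than 4 held a match, since the form is a subset. With the longest transcript as length 6 of the 10 genes kept their rank in UNT. Depth limits IGF2BP2, IGF1 and the binding proteins with few counts, and the calls of IGF1 and IGFBP6 were not among the values followed under alternatives.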
